A study of Homo sapiens with 15 samples.

Results

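NCI-H1975 cells treated with almonertinib were compared with control cells of the same line, in 6 of the 15 libraries of the series, 3 per group. NCI-H1975 is an established line of human non-small cell lung cancer with a mutated EGFR, and almonertinib is a covalent inhibitor of the EGFR kinase. Messenger RNA was sequenced and given by the authors as FPKM, the fragments of a gene per kilobase of its length scaled by library depth. Genes reaching 1 FPKM in 3 or more of these 6 libraries were taken, which left 13510 of the 61248 loci in the table, 10818 of them protein coding. The labels give both groups the same line and cell type and differ only in the treatment. They name the control only as control and state no dose, treatment time or medium, so the values describe 1 line at 1 unstated exposure. Nothing in the labels says that replicates are separate cultures, so the spread behind each p-value is that of the libraries and may be technical. The remaining libraries, used for side-by-side values, were 3 with EGF, 3 with an siRNA against EGFR (siEGFR) and 3 with a control siRNA (siNC).

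EGFR is a receptor tyrosine kinase that, when active, signals through RAS and the kinases MEK and ERK, and through PI3K and AKT. ERK phosphorylates transcription factors that bind immediate early genes, whose products include AP-1 and EGR proteins, and these act on cyclins, growth factors and matrix genes in turn. In lung epithelium EGFR signalling is known for driving proliferation and repair, and cells deprived of it are known to alter nutrient uptake, secretion and differentiation.

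The 3 almonertinib libraries held 20142786, 22205939 and 20145143 reads and the 3 control libraries held 21100647, 19013968 and 18009903 reads, which makes a single read over 1 kb worth 0.0450 to 0.0555 FPKM. Almonertinib 3 and control 1 stood apart from the other libraries of their groups, and their deviations from the group means correlated across genes (r = 0.612). Those of almonertinib 2 and control 2 correlated nearly as much (r = 0.599). Deviations within a group are tied to each other, so these values are not independent. The nuclear transcript MALAT1 had 66.6, 55.1 and 86.0 FPKM in almonertinib 1, 2 and 3 and 99.4, 48.5 and 70.0 FPKM in control 1, 2 and 3. All 6 epithelial markers reached 1 FPKM, and their summed level was 926 to 1043 FPKM with almonertinib and 923 to 1124 FPKM in control. None of 5 leukocyte markers did, with sums of 0.81 to 1.11 FPKM with almonertinib and 0.54 to 0.71 FPKM in control. Of 4 endothelial markers 2 reached it, CDH5 and PECAM1, and the summed level was 2.64 to 3.12 FPKM with almonertinib and 3.18 to 3.80 FPKM in control. Of 6 fibroblast markers 3 reached it, with COL1A2 at 340 to 361 FPKM with almonertinib and 323 to 336 FPKM in control. PDGFRB was at 9.14 to 11.9 FPKM with almonertinib and 8.10 to 9.49 FPKM in control, and COL1A1 at 9.25 to 10.8 FPKM with almonertinib and 5.80 to 7.50 FPKM in control. COL3A1 stayed below 1 FPKM and DCN and LUM were at or near 0.

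With almonertinib 431 genes rose (3.19% of those tested) and 475 fell (3.52%), together 906 genes (6.71%), at a Benjamini-Hochberg adjusted p under 0.05 in limma. Of these, 26 rose and 50 fell at least 2-fold. Changes are log2 differences of FPKM + 1, almonertinib minus control, and therefore understate the ratio for genes below a few FPKM. The median change was 0.57 among the genes that rose and -0.58 among those that fell, beside -0.05 over all genes tested. The replicates of all 906 genes were free of overlap between groups, which was true of 4901 genes (36.3%) of those tested. Where the groups of a called gene are said below to lie apart, this therefore describes the values and adds nothing to the call. In bulk RNA, fewer cells of a kind and less RNA per cell cannot be told apart. Many calls were lost whichever library was left out. A fit with fewer libraries also has less power, so a lost call does not show that a change rests on the library left out. Leaving out almonertinib 1, 2 or 3 left 35, 55 and 187 genes higher and 60, 73 and 180 lower, and leaving out control 1, 2 or 3 left 170, 138 and 53 higher and 216, 173 and 55 lower. Without almonertinib 3 and control 1 together, 830 genes were higher and 995 lower. These 2 libraries were chosen after the data were seen because they stood apart. Removing them narrows the spread within groups by construction, so these counts do not show a larger response. A core of 32 genes that rose and 50 that fell was called in each of the 6 fits with 1 library left out, and the smallest change among them was 0.708 in size. The scaling also moved the balance. The calls were 47.6% increases as deposited, 28.4% after rescaling each library to TPM and 54.3% after median-ratio scaling, which put the median of all genes at -0.12 and 0.00.

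**Figure D1:**
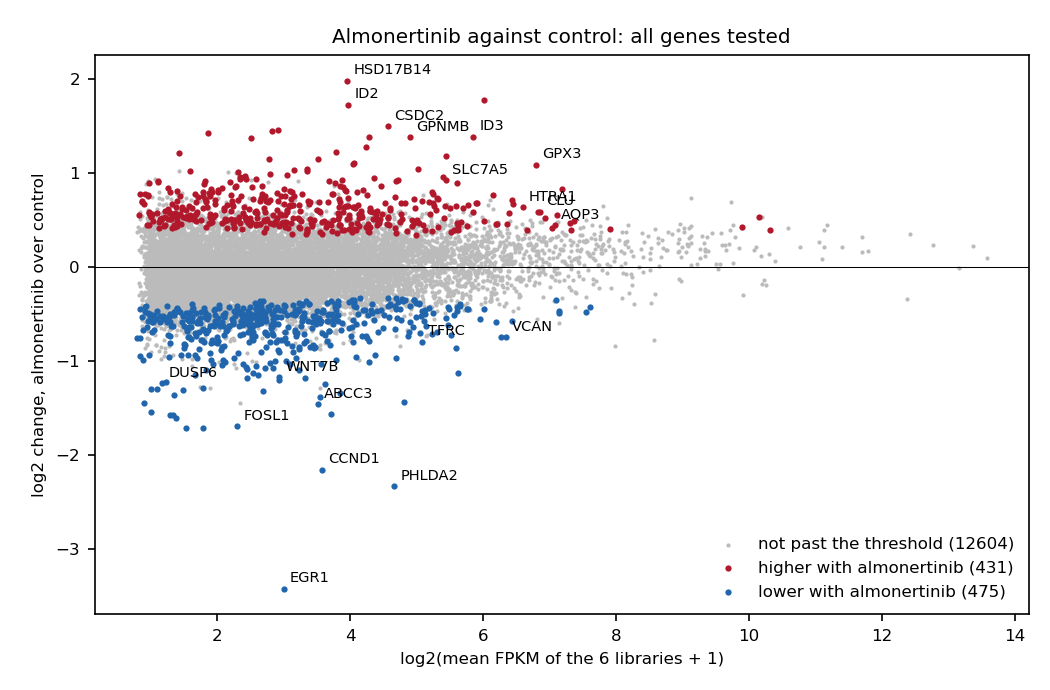
Mean level of each of the 13510 genes tested (horizontal, log axis, FPKM) against its log2 change with almonertinib over control (vertical), 1 point per gene, with red for the 431 genes that rose, blue for the 475 that fell and grey for the rest. The largest changes point downward, to -3.42 for EGR1, and the largest named increase is 1.98 for HSD17B14.

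The 6 marker genes of the response had been picked from earlier results of these data, and their values are a description. HSD17B14 and ID2 are given with the increases and factors, and the remaining 4 follow. EGR1 (ENSG00000120738), an immediate early transcription factor, had 0.301, 0.431 and 0.380 FPKM in almonertinib libraries and 12.4, 14.9 and 13.8 FPKM in control libraries. Every almonertinib library was far below every control library, at 2.71% of the control mean (-3.42 ± 0.10 SE, adjusted p = 3.77e-05). CCND1, cyclin D1, averaged 3.37 ± 0.119 FPKM with almonertinib and 18.5 ± 1.71 FPKM in control (SD, n = 3 each), a change of -2.15 ± 0.09 (limma adjusted p = 0.000282). PHLDA2, an imprinted growth regulator, averaged 7.44 ± 0.948 FPKM with almonertinib and 41.4 ± 2.79 FPKM in control (-2.33 ± 0.11). DUSP6, the phosphatase that switches ERK off, averaged 0.343 ± 0.0270 FPKM with almonertinib and 2.16 ± 0.0821 FPKM in control (-1.23 ± 0.09). Of 15 tested target and feedback genes of EGFR and ERK signalling, 11 fell, 0 rose (0 also at an unadjusted p under 0.05 and in limma-voom on recovered reads) and the median change was -1.01. That list had been reported on these data before, so its direction is no independent evidence. EGFR itself averaged 16.7 ± 2.18 FPKM with almonertinib and 24.4 ± 3.17 FPKM in control (-0.52 ± 0.13), which missed the threshold (limma adjusted p = 0.0561). It passed when all 15 libraries shared the spread (adjusted p = 0.00465), a fit that includes the narrower siRNA groups. EGFR passed in 6 of 17 alternatives and in 0 of the 6 fits with 1 library left out (adjusted p of up to 0.185).

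The start of EGR1 is shown because its transcript fell most. These are the 150 bases before the transcription start in the RefSeq annotation of GRCh38.p14, with 2 CArG boxes in capitals, the element that serum response factor binds, beginning 105 and 83 bases before the start.
EGR1 promoter, chr5:138465329-138465478, plus strand: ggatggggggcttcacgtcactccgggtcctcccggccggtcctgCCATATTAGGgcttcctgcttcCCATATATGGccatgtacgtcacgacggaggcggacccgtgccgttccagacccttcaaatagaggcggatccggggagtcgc
Among the promoters of tested genes, taken from 250 bases before to 50 bases after the start, 1.08% held a CArG box on either strand. The share was 0.725% for the 276 matched genes that rose (2 promoters) and 0.898% for the 334 that fell (3 promoters). These counts are too small to compare the shares. Of the other named genes AQP3, which rose, also held a box. Of the 128 genes named by rule, 84 matched a promoter in the table.

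**Figure D2:**
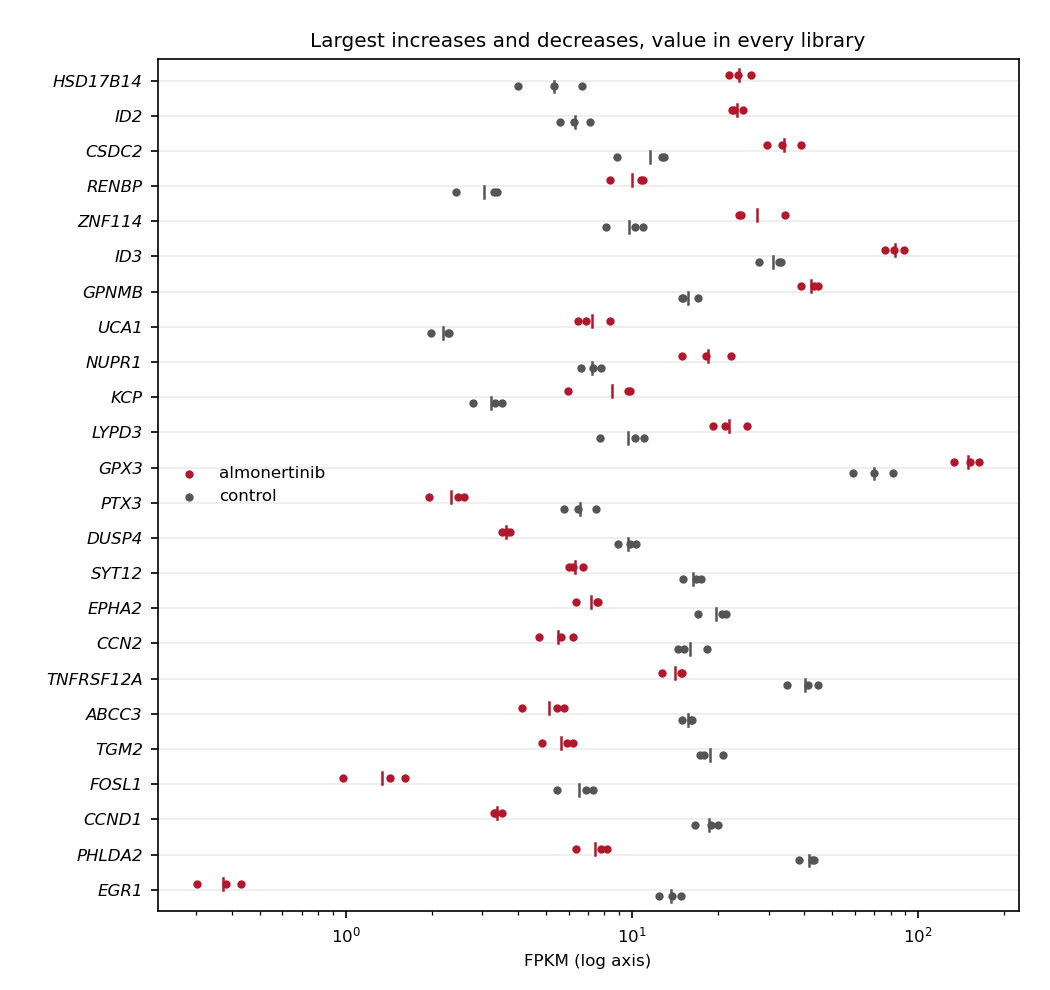
Level in every library (log axis, FPKM) of the 12 largest increases and the 12 largest decreases by rule, with almonertinib in red above control in grey and a tick at each mean. The 2 groups are separated for every gene shown, from EGR1 at 0.37 against 13.7 FPKM to HSD17B14 at 23.7 against 5.35 FPKM.

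HSD17B14, ID2 and CSDC2 led the 12 largest increases given by the rule. HSD17B14, a short-chain dehydrogenase of the 17-beta-hydroxysteroid type, had 23.4, 26.0 and 21.7 FPKM in almonertinib libraries and 4.01, 5.34 and 6.69 FPKM in control libraries. All almonertinib values were more than 3 times the highest control value, and the change was 1.98 ± 0.16 (limma adjusted p = 0.0027). RENBP, the N-acyl-glucosamine 2-epimerase, had 10.8, 10.9 and 8.39 FPKM with almonertinib and 2.43, 3.37 and 3.28 FPKM in control (1.45 ± 0.14). CSDC2, a cold shock domain protein that binds RNA, had 33.4, 38.9 and 29.7 FPKM with almonertinib and 8.82, 12.8 and 12.9 FPKM in control (1.49 ± 0.16). GPNMB, a transmembrane glycoprotein of melanosomes and lysosomes, had 44.7, 38.8 and 43.3 FPKM with almonertinib and 15.1, 16.9 and 15 FPKM in control (1.38 ± 0.09). The groups lay well apart for all 3 of these genes. GPX3, a secreted glutathione peroxidase, averaged 150 ± 15.2 FPKM with almonertinib and 70.2 ± 11.2 FPKM in control, the most abundant of the 12 (1.09 ± 0.14). The long noncoding RNA UCA1 rose by 1.37 and NUPR1, a stress-induced chromatin protein, by 1.22. KCP, a secreted kielin/chordin-like regulator of BMP ligands, rose by 1.15, and LYPD3, a GPI-anchored protein of squamous epithelium, by 1.10. Without almonertinib 1 the increases of KCP, LYPD3 and GPX3 missed the threshold, and their highest adjusted p with 1 library left out was 0.0823, 0.0664 and 0.061. KCP also missed it without almonertinib 2 or control 3, and GPX3 without control 3. The other 9 genes, which include ID2, ID3 and ZNF114, passed in all 6 of these fits.

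The pseudogene of the tryptase family TPSP2, which the rule left out and which was chosen after its values were seen, had 109, 113 and 77.0 FPKM with almonertinib and 22.7, 32.8 and 29.3 FPKM in control. Its change was 1.78 ± 0.19 (limma adjusted p = 0.00598), larger than that of ID2. Reads of tryptase relatives may be counted there, so the value is uncertain as to its source.

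EGR1, PHLDA2 and CCND1 led the 12 largest decreases given by the rule, followed by FOSL1, TGM2 and ABCC3. FOSL1, an AP-1 subunit, had 1.60, 0.978 and 1.42 FPKM with almonertinib and 5.45, 7.27 and 6.89 FPKM in control (-1.69 ± 0.15). TGM2, a transglutaminase that cross-links matrix proteins, averaged 30.3% of control. TNFRSF12A, the receptor of the cytokine TWEAK, had 14.9, 14.9 and 12.7 FPKM with almonertinib and 34.7, 44.8 and 41.2 FPKM in control (-1.44 ± 0.12). In each of the 3 genes the highest almonertinib library was below the lowest control library. EPHA2, an ephrin receptor kinase, fell by 1.34, SYT12, a synaptotagmin, by 1.24, DUSP4, a phosphatase of nuclear ERK, by 1.2 and PTX3, a secreted pentraxin, by 1.18. All 12 decreases passed with any 1 library left out.

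Each of the 10 lists of transcription factors held at least 1 gene that changed. Helix-loop-helix genes had 37 tested members, of which 5 rose and 1 fell, 16.2% beside 6.71% of all genes tested (median 0.05). The ID proteins lack a DNA-binding region and hold other helix-loop-helix proteins off DNA. ID1 had 57.6, 65.1 and 64.9 FPKM with almonertinib and 27.2, 37.8 and 35.4 FPKM in control, a change of 0.89 ± 0.13 (limma adjusted p = 0.0167). ID2 had 22.3, 22.7 and 24.5 FPKM with almonertinib and 5.61, 7.13 and 6.25 FPKM in control (1.73 ± 0.10, adjusted p = 0.00116). ID3 had 76.8, 82.5 and 89.2 FPKM with almonertinib and 27.8, 32.6 and 33.1 FPKM in control (1.38 ± 0.10, adjusted p = 0.00223). Groups did not overlap for any of the 3, and ID2 had the steepest change. ID4 had 6.6, 7.09 and 8.56 FPKM with almonertinib and 6.16, 4.01 and 4.57 FPKM in control, and its change of 0.52 missed the threshold (adjusted p = 0.0885). ATOH8, an atonal-type factor, had 6, 6.55 and 5.60 FPKM with almonertinib and 2.50, 2.49 and 2.86 FPKM in control (0.96 ± 0.10). MLXIPL, the glucose-sensing factor ChREBP, rose by 0.64, and HES1, a target of Notch, fell by 0.45. ID2, ID3 and ATOH8 passed with any 1 library left out. ID1 did not without almonertinib 1, almonertinib 2 or control 3 (adjusted p of up to 0.0734), and HES1 and MLXIPL were lost in more of these fits.

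Of 42 tested bZIP genes, which encode AP-1, CREB and related factors, 5 rose and 5 fell, 23.8% beside 6.71% of all genes tested (median -0.04). FOS, the AP-1 subunit named for the oncogene, had 0.483, 0.424 and 0.374 FPKM with almonertinib and 2.34, 2.82 and 2.84 FPKM in control (-1.36 ± 0.10, limma adjusted p = 0.00236). CREB5 averaged 35.2% of control (-0.94 ± 0.13) and MAFF, a small MAF protein, 62.2% (-0.46 ± 0.09). The AP-1 partners JUN and JUNB, chosen after their values were seen, changed by -0.29 and -0.30 and missed the threshold (adjusted p = 0.0669 and 0.0867). Those that rose were factors of endoplasmic reticulum and amino acid stress and of the clock. CREB3L3, a membrane-bound factor known from liver, had 14.1, 15.8 and 17.4 FPKM with almonertinib and 9, 7.96 and 9.52 FPKM in control (0.77 ± 0.11, adjusted p = 0.013). Its relative CREB3L4 rose by 0.53, while CREB3 and CREB3L1 changed by 0.08 and -0.18 and did not pass. DDIT3, the stress factor CHOP, had 10.7, 10.9 and 14.6 FPKM with almonertinib and 6.85, 7.04 and 7.18 FPKM in control (0.69 ± 0.12), and ATF4, which acts upstream of it, rose by 0.42. DBP, a clock output factor, rose by 0.52. FOS and FOSL1 passed with any 1 library left out, whereas the other bZIP calls each missed the threshold in at least 1 such fit (CREB3L3 up to an adjusted p of 0.0601, DDIT3 up to 0.103).

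ETS factors include the PEA3 group, whose transcripts follow ERK activity in many tissues. Of 16 tested ETS genes limma called 0 higher and 2 lower, 12.5% beside 6.71% of all genes tested, and the median change was -0.28. At an unadjusted p under 0.05 they were 1 and 7, and limma-voom on recovered reads called 0 and 3. ETV5 had 2.47, 1.85 and 2.42 FPKM with almonertinib and 5.91, 4.78 and 5.36 FPKM in control (-0.97 ± 0.12, limma adjusted p = 0.00881). ETV1 had 1.53, 1.33 and 1.70 FPKM with almonertinib and 4.98, 3.41 and 3.70 FPKM in control (-0.99 ± 0.14, adjusted p = 0.014). ETV4, the remaining member of the PEA3 group, was lower in every almonertinib library and just missed the threshold (-0.37, adjusted p = 0.0529). ETV5 was lost without control 3 (adjusted p = 0.058), and ETV1 without almonertinib 1, almonertinib 2 or control 3 (up to 0.0708).

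Among 23 nuclear receptors 1 rose and 1 fell, 8.7% beside 6.71% of all genes tested. The one that fell was VDR, the vitamin D receptor, which averaged 3.48 ± 0.414 FPKM with almonertinib and 6 ± 0.217 FPKM in control (-0.65 ± 0.10). KLF10, induced by TGF-beta, was the 1 of 17 KLF and SP genes that changed (53.2% of control, -0.74 ± 0.09), and it passed with any 1 library left out. POU2F3, which specifies tuft cells, was the 1 of 37 homeobox genes to rise (0.60 ± 0.11, limma adjusted p = 0.0247). None fell, beside 6 lower at an unadjusted p under 0.05 and 1 in limma-voom. FOXO4, a forkhead factor that AKT restrains, rose by 0.39 and FOXC1 fell by 0.46, of 21 SOX, FOX and GATA genes. SMAD3, which carries TGF-beta signals, fell by 0.39, the only called member of 25 STAT, IRF, SMAD and NF-kB genes. Of 24 factors such as the TEAD, RUNX, GRHL and EGR families only EGR1 was called (4.17%). The shares called were 5.88% of KLF and SP genes and 2.7% of homeobox genes. They were 9.52% of SOX, FOX and GATA genes and 4.0% of STAT, IRF, SMAD and NF-kB genes. Among 368 genes with a ZNF symbol, 7 rose and 1 fell, which is 2.17% against 6.71% of all genes tested. ZNF114 led them with 23.6, 24.1 and 34.2 FPKM with almonertinib and 10.9, 8.10 and 10.2 FPKM in control (1.39 ± 0.17). Its highest value was in almonertinib 3. VDR, POU2F3, FOXO4, FOXC1 and SMAD3 missed the threshold in 4 or more of the 6 fits with 1 library left out. FOXO4 was also lost under TPM scaling (whose centre lies at -0.12) and SMAD3 under median-ratio scaling.

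**Figure D3:**
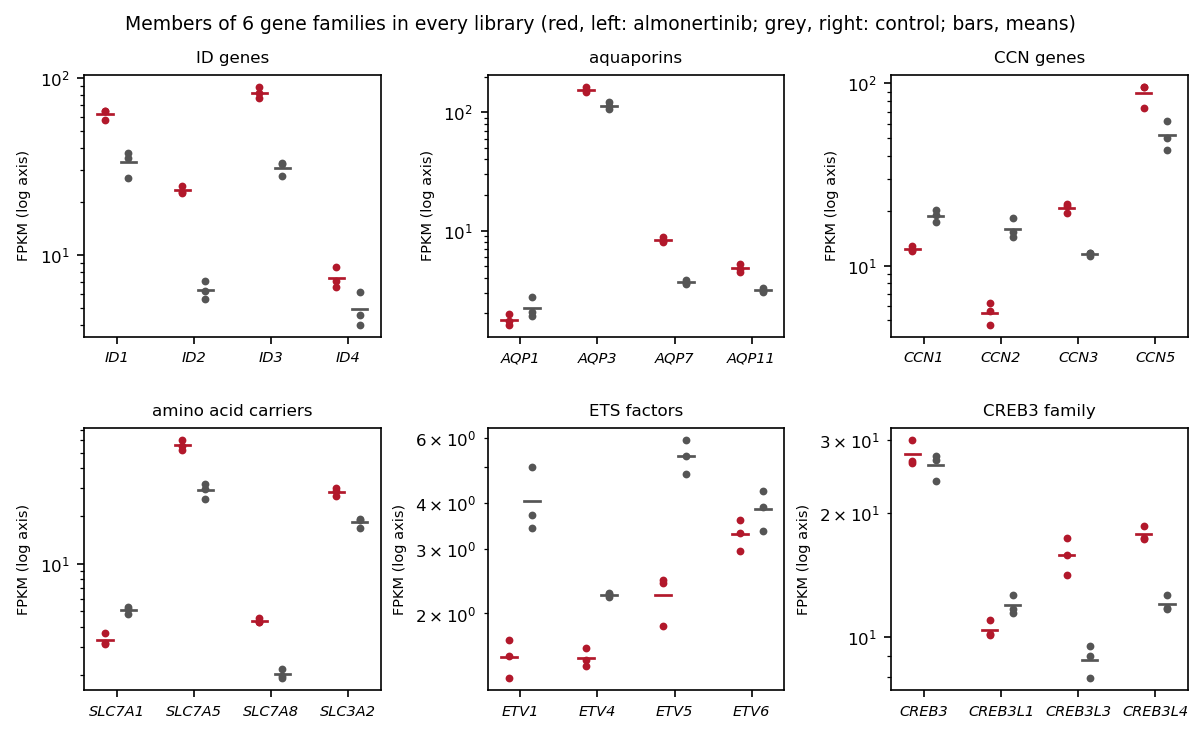
Level in every library (log axis, FPKM) of 4 members of each of 6 gene families, almonertinib in red on the left and control in grey on the right, with bars at the means. Within a family the members part: ID2 rose most and ID4 lay closest to control, CCN2 fell while CCN3 rose, and SLC7A1 fell while SLC7A5, SLC7A8 and SLC3A2 rose.

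Of 174 tested solute carriers 8 rose and 10 fell, 10.3% together beside 6.71% of all genes tested, and the median of -0.07 was near that of all genes. Amino acid carriers, 18 of them tested, had 3 that rose and 1 that fell, 22.2% together (median -0.11). SLC7A5, the light chain of the L-type carrier LAT1 for leucine and other large neutral amino acids, had 54.9, 60.1 and 52.2 FPKM with almonertinib and 25.6, 31.6 and 29.8 FPKM in control (0.92 ± 0.10, limma adjusted p = 0.00694). Its heavy chain SLC3A2 had 26.6, 29.9 and 28.9 FPKM with almonertinib and 16.8, 19.2 and 19.0 FPKM in control (0.61 ± 0.09, adjusted p = 0.0155). SLC7A8, the light chain LAT2, had 4.32, 4.56 and 4.26 FPKM with almonertinib and 1.90, 1.96 and 2.18 FPKM in control (0.84 ± 0.09). The transcripts of both chains of the heterodimer and of the alternative light chain were higher in every almonertinib library. SLC7A1, the carrier of arginine and lysine, had 3.67, 3.15 and 3.13 FPKM with almonertinib and 5.18, 5.32 and 4.85 FPKM in control (-0.50 ± 0.10). SLC7A11, the cystine exchanger, and SLC38A2, a carrier of small neutral amino acids, overlapped between groups (adjusted p = 0.808 and 0.287; both were chosen after their values were seen). SLC7A8 passed with any 1 library left out, SLC7A5 missed the threshold without almonertinib 1 (adjusted p = 0.0514), SLC3A2 without almonertinib 1, almonertinib 2 or control 3, and SLC7A1 in all 6 fits.

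The promoter of SLC7A5 is printed because it holds the CACGTG element, which MYC and related factors bind, in capitals and starting 130 bases before the start. That of GPNMB holds TGACTCA, the AP-1 element, read on the opposite strand so that the printed letters are TGAGTCA, starting 134 bases before the start. Both are 150 bases long and come from RefSeq on GRCh38.p14, each written on the strand of the gene.
SLC7A5 promoter, chr16:87869508-87869657, minus strand: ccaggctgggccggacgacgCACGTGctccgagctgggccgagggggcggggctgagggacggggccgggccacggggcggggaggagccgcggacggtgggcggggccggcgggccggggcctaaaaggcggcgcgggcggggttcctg
GPNMB promoter, chr7:23246625-23246774, plus strand: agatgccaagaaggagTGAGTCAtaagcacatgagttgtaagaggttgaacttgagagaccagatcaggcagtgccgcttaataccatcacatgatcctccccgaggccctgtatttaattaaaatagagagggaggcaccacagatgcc
CACGTG was in 12% of the promoters of genes that rose, in 12% of those that fell and in 10.5% of tested promoters. TGACTCA was in 5.43% of the promoters of genes that rose, 5.69% of those that fell and 3.17% of tested promoters, and of the named genes SLC3A2 and DDIT3, which rose, and F3, ZNF239, SPINT1 and PLAUR, which fell, also held it. Among the named genes the element shown for SLC7A5 was also held by TJP3, which rose, and by SLC20A1, ALDH18A1, ATP2B1, SMAD3 and MAFF, which fell. Both strands were searched, and these letters show no binding. Further motifs were TGACGTCA of CREB factors (2.90% rose, 2.99% fell, 3.42% tested), TGATGCAA of the ATF4 and CHOP pair (1.09%, 0.299% and 0.463%) and GGCGCC, read by SMAD proteins (27.5%, 34.7% and 31.1%). The ETS element CCGGAAGT was in 3.99% of the promoters of genes that rose, 5.09% of those that fell and 9.45% of tested promoters. TGACGTCA, CACGTG and GGCGCC read the same on both strands, and no other motif of the set contains another.

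Carriers of other substrates that passed were few. SLC4A11, a borate and proton transporter, had 10.7, 11.5 and 8.60 FPKM with almonertinib and 5.12, 5.58 and 6.20 FPKM in control (0.76 ± 0.12, limma adjusted p = 0.0207). The fatty acid transport proteins parted, with SLC27A4 lower (-0.70 ± 0.11) and SLC27A1 higher (0.61). SLC29A1, the equilibrative nucleoside transporter, rose by 0.42, the fructose carrier SLC2A5 by 0.50 and the sodium and proton exchanger SLC9A3 by 0.58. SLC20A1, a phosphate importer, averaged 55.4% of control (-0.79 ± 0.11) and SLCO2A1, the prostaglandin transporter, 52.1%. Among 11 glucose and monocarboxylate carriers limma called 0, as did limma-voom, while 1 was higher and 2 were lower at an unadjusted p under 0.05. SLC2A1, the main glucose importer of tumour cells, had 20.9, 22.8 and 18 FPKM with almonertinib and 16.2, 19.8 and 19.3 FPKM in control (adjusted p = 0.431). SLC16A3, which exports lactate, overlapped between groups too (adjusted p = 0.219; both were chosen after their values were seen). Of 26 metal ion carriers limma called 0 higher and 2 lower, 7.69% beside 6.71% of all genes tested. At an unadjusted p under 0.05 these were 0 and 5, and in limma-voom 0 and 2. TFRC, the transferrin receptor for iron, had 25.9, 20.3 and 25.0 FPKM with almonertinib and 49.0, 36.7 and 40.1 FPKM in control (-0.79 ± 0.14), and SLC39A14, a zinc and iron importer, averaged 69.7% of control. Each of these calls missed the threshold in at least 1 fit with a library left out, SLC4A11 in each such fit but the one without almonertinib 3, and TFRC without any 1 almonertinib library or control 3.

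ABCC3, which exports glucuronides and drug conjugates, was the 1 of 21 ABC transporters that changed (4.76%, beside 6.71% of all genes tested). It had 5.78, 5.46 and 4.12 FPKM with almonertinib and 15, 16.1 and 16.1 FPKM in control, so all 3 treated libraries were far below every control library, at 32.5% of its mean (-1.46 ± 0.12, limma adjusted p = 0.0027), and the call held with any 1 library left out. ABCG2, a multidrug exporter chosen after its values were seen, had 13.3, 11.7 and 17 FPKM with almonertinib and 15.7, 11.3 and 13.7 FPKM in control and did not pass (adjusted p = 0.891). Among 60 ion channels 3 rose and 3 fell (median 0.05), a share not far above the 6.71% of all genes tested. The increases were aquaporins, which conduct water or glycerol. AQP7, an aquaglyceroporin, had 8.15, 8.75 and 7.99 FPKM with almonertinib and 3.55, 3.64 and 3.85 FPKM in control (0.99 ± 0.09, adjusted p = 0.0027). It has near-identical copies in the genome, so its reads may be split among them. AQP3, the abundant aquaglyceroporin of airway epithelium, had 153, 164 and 148 FPKM with almonertinib and 106, 112 and 122 FPKM in control (0.45 ± 0.09, adjusted p = 0.0364), and AQP11 rose by 0.49. AQP1, a water channel, changed by -0.22 and did not pass. The potassium channel KCNK5, the cation channel TRPV2 and the ATP-gated channel P2RX5 fell by 0.53, 0.60 and 0.50. KCNK5 and TRPV2 were lost in 5 and P2RX5 in 6 of the 6 fits with 1 library left out, and TRPV2 also under median-ratio scaling. AQP7 passed with any 1 library left out, whereas AQP3 and AQP11 passed with none and AQP3 was lost under TPM scaling.

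Ion pumps had the lowest median of the transporter lists at -0.30, with 0 of 24 higher and 3 lower in limma, 12.5% beside 6.71% of all genes tested. At an unadjusted p under 0.05 these were 1 and 13, and in limma-voom 1 and 3. ATP2B1, a calcium pump of the plasma membrane, had 5.63, 4.57 and 6.58 FPKM with almonertinib and 14, 9.22 and 10.2 FPKM in control (-0.87 ± 0.17, limma adjusted p = 0.0341). ATP11A, a phospholipid flippase, averaged 48.6% of control (-0.68 ± 0.14). For both genes the highest almonertinib value lay under the lowest control value, but with 1 library left out ATP11A missed the threshold in all 6 fits and ATP2B1 in all but the one without control 2. Control 1, a library that stood apart, held the highest value of ATP2B1.

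Of 47 tested genes for secreted growth factors and morphogens 5 rose and 8 fell, 27.7% beside 6.71% of all genes (median -0.10). The CCN matricellular proteins went both ways. CCN2, induced by YAP and TGF-beta, had 6.20, 5.64 and 4.73 FPKM with almonertinib and 15.2, 18.2 and 14.4 FPKM in control (-1.38 ± 0.12, limma adjusted p = 0.00362). CCN1 had 12.1, 12.2 and 12.8 FPKM with almonertinib and 17.3, 20.2 and 19.0 FPKM in control (-0.57 ± 0.09). CCN3, which opposes CCN2 in several tissues, had 21.2, 19.5 and 21.8 FPKM with almonertinib and 11.7, 11.7 and 11.3 FPKM in control (0.80 ± 0.08, adjusted p = 0.00489). CCN5, which lacks the C-terminal domain of its relatives, had 95.6, 95.7 and 73.1 FPKM with almonertinib and 43.2, 61.8 and 50.3 FPKM in control (0.76 ± 0.16). No library of one group reached into the other for these 4 genes, which holds for every called gene. The VEGF ligands also parted, with VEGFB higher (33.9 ± 3.04 FPKM with almonertinib and 20.7 ± 1.19 FPKM in control, 0.68 ± 0.10) and VEGFA lower (67.3% of control, -0.50 ± 0.08). WNT7B, a WNT ligand of lung epithelium, had 4.46, 3.58 and 3.10 FPKM with almonertinib and 8.64, 10.2 and 9.79 FPKM in control (-1.17 ± 0.13). ANGPTL4, an inhibitor of lipoprotein lipase, averaged 20.4% of control at low levels, FGF1 49.5%, the phosphate hormone STC1 60.6% and the WNT antagonist DKK1 77.3%. ADM, adrenomedullin, rose by 0.54 and INHA, the inhibin alpha chain, by 0.79. CCN2, CCN3, WNT7B and ANGPTL4 passed with any 1 library left out, and the other 9 did not in at least 3 of these 6 fits.

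Immune ligands and receptors with chemokine, interleukin or TNF symbols had 27 tested members, of which 2 rose and 4 fell, 22.2% beside 6.71% of all genes tested. TNFSF9, the ligand of 4-1BB, had 43.1, 48.7 and 48.2 FPKM with almonertinib and 22.1, 26.2 and 32.1 FPKM in control (0.79 ± 0.14, limma adjusted p = 0.0249), and CD70, the ligand of CD27, rose by 0.65. CX3CL1, the membrane-bound chemokine fractalkine, had 8.15, 8.57 and 7.85 FPKM with almonertinib and 14.8, 15.3 and 14.5 FPKM in control (-0.79 ± 0.08, adjusted p = 0.00456). IL7R, the receptor of interleukin-7, averaged 33.0% of control (-1.09 ± 0.11) and IL4R 63.6%. CSF2, the cytokine GM-CSF, had 0.441, 0.571 and 0.252 FPKM with almonertinib and 1.02, 1.27 and 1.48 FPKM in control. CX3CL1 and IL7R held with any 1 library left out, CSF2 and CD70 with none, and CD70 was lost under both other scalings. TNFSF9 was lost without any 1 almonertinib library or control 2 (limma adjusted p of up to 0.0996). IL4R was lost without almonertinib 1, almonertinib 2 or control 3.

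Protease systems shifted in both directions. PLAU, the urokinase that activates plasminogen, had 19.9, 20.2 and 20.8 FPKM with almonertinib and 27.5, 32.6 and 30.1 FPKM in control (-0.54 ± 0.09, limma adjusted p = 0.0198), and the urokinase receptor PLAUR averaged 70.0% of control. F3, tissue factor, which starts coagulation, averaged 36.6% of control (-0.81 ± 0.10) and F2RL1, a receptor cleaved by proteases, 66.9%. All of these were lower in every almonertinib library. SERPINA5, an inhibitor of activated protein C, had 11.2, 10.7 and 11.8 FPKM with almonertinib and 6.41, 5.44 and 6.65 FPKM in control (0.78 ± 0.10, adjusted p = 0.00903). SPINK4, a Kazal-type inhibitor of goblet cells, had 27.8, 28.8 and 26.2 FPKM with almonertinib and 12.9, 15.5 and 15.9 FPKM in control (0.86 ± 0.10, adjusted p = 0.00712). HTRA1, a secreted serine protease, averaged 117 ± 2.87 FPKM with almonertinib and 74.8 ± 1.60 FPKM in control (0.64 ± 0.08), and CLU, the chaperone clusterin, 139 ± 9.18 and 91.9 ± 4.75 FPKM (0.59 ± 0.09). In the lists, 2 of 13 serpins rose and 3 fell, and 2 of 18 other protease inhibitors rose and 2 fell. Of 23 complement and coagulation genes 2 rose and 4 fell. Of 9 genes listed as IGF-binding proteins 1 rose, which was HTRA1. In that order the shares called were 38.5%, 22.2%, 26.1% and 11.1%, beside 6.71% of all genes tested. C4A and CST2 rose as well, but each has a near-identical relative whose reads may be mixed in. SERPINA5 and SPINK4 missed the threshold without almonertinib 1 (adjusted p = 0.06 and 0.0546), HTRA1 and F3 without almonertinib 1 or control 3, CLU and F2RL1 also without almonertinib 2, PLAU also without control 2, and PLAUR in all 6 fits.

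Matrix glycoproteins and proteoglycans had 56 tested members, with 3 higher and 8 lower, 19.6% beside 6.71% of all genes tested (median -0.07). VCAN, the large proteoglycan versican, had 67.9, 54.1 and 56.8 FPKM with almonertinib and 122, 88.9 and 92.6 FPKM in control (-0.74 ± 0.15). LAMB1, a laminin chain of basement membranes, averaged 40.4% of control, LOXL4, a lysyl oxidase, 53.9%, and SDC1, a syndecan of epithelial cells, 68.1%. THBS1, thrombospondin-1, had 54.2, 52.9 and 40.9 FPKM with almonertinib and 69.7, 79.3 and 68.3 FPKM in control and passed narrowly (limma adjusted p = 0.0499). SPP1, osteopontin, had 3.87, 3.66 and 3.81 FPKM with almonertinib and 1.78, 1.70 and 1.61 FPKM in control (0.83 ± 0.09, adjusted p = 0.00619), and GPC4, a glypican, averaged 158% of control. SPP1 held with any 1 library left out, while VCAN and THBS1 were lost in all 6 fits. LAMB1, LOXL4, GPC4 and SDC1 were lost without almonertinib 1, almonertinib 2 or control 3, and SDC1 also without control 2. Of 40 axon guidance genes 2 rose (ROBO3 and SEMA6C) and 2 fell (EPHA2 and NRP1, a co-receptor of semaphorins and VEGF at 48.4% of control). Together these were a share not far above the 6.71% of all genes tested. ROBO3 and SEMA6C missed the threshold in all 6 fits with 1 library left out and under TPM scaling. NRP1 missed it without almonertinib 1, almonertinib 2 or control 3, and EPHA2 passed in all 6 fits. HAS3, a hyaluronan synthase chosen after its values were seen, had 2.77, 2.46 and 2.29 FPKM with almonertinib and 6.01, 6.34 and 6.53 FPKM in control (-1.06 ± 0.10).

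**Figure D4:**
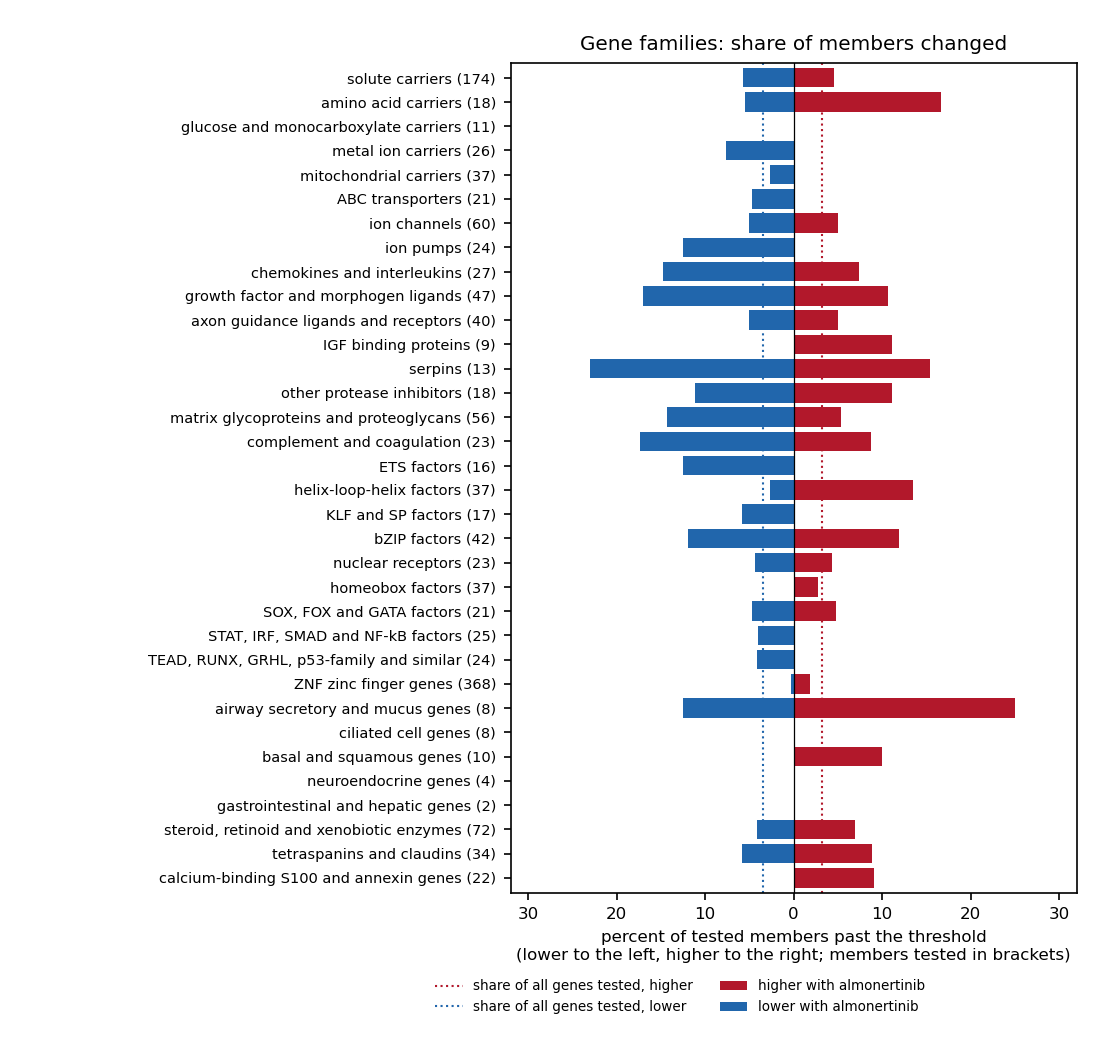
Share of tested members of each gene list that rose (red, to the right) or fell (blue, to the left) with almonertinib, in percent, with the number tested in brackets and dotted lines at the shares of all genes tested, 3.19% and 3.52%. Growth factor and morphogen ligands (5 higher and 8 lower of 47) and bZIP factors (5 and 5 of 42) reach beyond both lines. IGF binding proteins, with only HTRA1 called, reach beyond that for increases alone. Glucose carriers, ciliated cell and neuroendocrine genes show no bar.

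Of 8 tested airway secretory genes 2 rose and 1 fell (median 0.20), which is 37.5% of a short list beside 6.71% of all genes tested. LCN2, a siderophore-binding lipocalin of secretory cells, had 5.23, 5.08 and 5.23 FPKM with almonertinib and 3.06, 2.90 and 2.40 FPKM in control (0.71 ± 0.10, limma adjusted p = 0.0138). CYP4B1, a cytochrome of club cells, averaged 172% of control at under 2 FPKM, and MUC16, a membrane mucin, 45.4%. MUC1, another membrane mucin chosen after its values were seen, changed by 0.47 and did not pass (adjusted p = 0.113). The secretoglobin SCGB1D2 and the BPI-fold protein BPIFB4, both secreted and chosen after their values were seen, were at 2.40, 2.47 and 3.38 and at 4.71, 4.66 and 3.62 FPKM with almonertinib. In control they were at 0.521, 0.694 and 0.610 and at 0.791, 1.23 and 0.927 FPKM. Their changes were 1.21 ± 0.13 and 1.42 ± 0.13 (adjusted p = 0.00586 and 0.00436), with every almonertinib library above every control library. Of 10 basal and squamous genes only CNFN, of the cornified envelope, rose (0.66 ± 0.15, adjusted p = 0.0472). It was lost under TPM and median-ratio scaling, in limma-voom and in 5 of the 6 fits with 1 library left out. None of 8 ciliated cell, 4 neuroendocrine and 2 gastrointestinal or hepatic genes passed in limma. At an unadjusted p under 0.05, 3 ciliated cell genes were higher, and 1 neuroendocrine gene was higher and 1 lower. Limma-voom called 1 ciliated cell gene higher and 0 others. Of the epithelial markers CDH1, E-cadherin, had 3.86, 3.51 and 3.76 FPKM with almonertinib and 6.36, 5.56 and 5.14 FPKM in control (-0.50 ± 0.10), and KRT7 averaged 59.1% of control. The fibroblast marker COL1A1 rose by 0.51. LCN2 missed the threshold without almonertinib 1, almonertinib 2 or control 3, and CDH1, COL1A1, CYP4B1 and MUC16 missed it in all 6 fits with 1 library left out.

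Enzymes of steroids, retinoids and foreign compounds numbered 72, of which 5 rose and 3 fell, 11.1% beside 6.71% of all genes tested (median 0.07). Besides HSD17B14, CYP27A1, the mitochondrial sterol 27-hydroxylase, had 13.2, 13 and 11.9 FPKM with almonertinib and 5.10, 6.36 and 5.84 FPKM in control (1.02 ± 0.10, limma adjusted p = 0.00456). CYP4F12, a fatty acid hydroxylase, had 23.8, 22.1 and 21.5 FPKM with almonertinib and 12.2, 11.7 and 13 FPKM in control (0.82 ± 0.08), though close relatives may share its reads. DHRS3, which reduces retinal to retinol, had 15.9, 18.1 and 16.5 FPKM with almonertinib and 7.50, 9.83 and 8.56 FPKM in control (0.90 ± 0.11). RDH11, another retinal reductase, averaged 57.9% of control (-0.72 ± 0.12). The treated libraries lay above all control libraries for the first 3 and below them for RDH11. HSD17B14, CYP27A1 and CYP4F12 passed with any 1 library left out, DHRS3 did not without almonertinib 1 or control 3, and RDH11 did not without almonertinib 1, almonertinib 2 or control 3.

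Of 34 tetraspanins, claudins and tight junction proteins 3 rose and 2 fell, 14.7% beside 6.71% of all genes tested. CLDN7, a claudin of lung epithelium, had 8.29, 8.02 and 8.84 FPKM with almonertinib and 5.55, 5.34 and 6.42 FPKM in control (0.47 ± 0.10, limma adjusted p = 0.0341). CLDN23 averaged 178% and the scaffold TJP3 163% of control. The scaffold TJP1, ZO-1, had 6.90, 5.65 and 6.96 FPKM with almonertinib and 12.6, 9.24 and 10.1 FPKM in control (-0.63 ± 0.13), and CLDN2, a pore-forming claudin, averaged 44.0%. Of 22 S100 and annexin genes S100P, a calcium-binding protein, rose to 200% and ANXA9 to 132% of control, and these were 9.09% of the list. None fell in limma, and 2 were lower at an unadjusted p under 0.05. Limma-voom called none of the list in either direction, so both increases were lost there. These calls missed the threshold in 5 or 6 of the 6 fits with 1 library left out.

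The same genes were read in cells given EGF, the ligand of the receptor, and in cells with the siRNA against EGFR. Almonertinib and EGF are set against the same control libraries, so their values are given side by side and not tested for likeness. GPNMB changed by 1.38 with almonertinib and -2.19 with EGF, CSDC2 by 1.49 and -2.38, and AQP7 by 0.99 and -1.75. PTX3 changed by -1.18 with almonertinib and 2.44 with EGF, and TFRC by -0.79 and 0.99. ABCC3 changed by -1.46 with almonertinib and -0.26 with EGF, SYT12 by -1.24 and -0.58, and SLC7A5 by 0.92 and 0.59. VCAN changed by -0.74 and -0.73, MUC16 by -0.91 and -1.63 and CDH1 by -0.50 and -1.09. Each of these EGF changes passed its own limma threshold, while ZNF114 did not pass with EGF (0.00).

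The siEGFR and siNC libraries share no library with almonertinib or control. EGFR averaged 29.1 ± 0.666 FPKM in siEGFR and 49.6 ± 0.218 FPKM in siNC libraries (-0.75), so much of the transcript remained, above the 24.4 FPKM of control cells without siRNA. The knockdown raised 1610 of the 13510 genes (11.9%) and lowered 1369 (10.1%) in its own limma fit, in which the spread between replicates was smaller. Of the genes that rose with almonertinib, 80 also rose after knockdown, 18.6% of almonertinib's and 4.97% of the knockdown's list, and 42 (9.74%) fell. Of the genes that fell with almonertinib, 158 also fell after knockdown, 33.3% and 11.5% of the lists, and 53 (11.2%) rose. EGR1 averaged 2.93 FPKM in siEGFR and 4.50 FPKM in siNC libraries (-0.49 ± 0.05), and ABCC3 11.1 and 16.9 FPKM (-0.56 ± 0.04). SLC7A5 averaged 129 FPKM in siEGFR and 99.9 FPKM in siNC libraries (0.37 ± 0.04), and SLC3A2 43.7 and 34.5 FPKM (0.33 ± 0.03). HSD17B14 and GPNMB, which rose with almonertinib, fell by 0.40 and 0.34 after knockdown. FOSL1, CCN2 and TFRC, which fell with almonertinib, rose by 0.41, 0.28 and 0.33 after it. ID2 did not pass after knockdown (-0.10, adjusted p = 0.169), while ID3 rose by 0.18. Several genes that almonertinib raised were barely transcribed in the siRNA libraries, among them AQP7 (0.597 FPKM in siEGFR and 0.470 FPKM in siNC), SPINK4 (0.585 and 0.603 FPKM) and CSDC2 (0.777 and 0.520 FPKM).

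**Figure D5:**
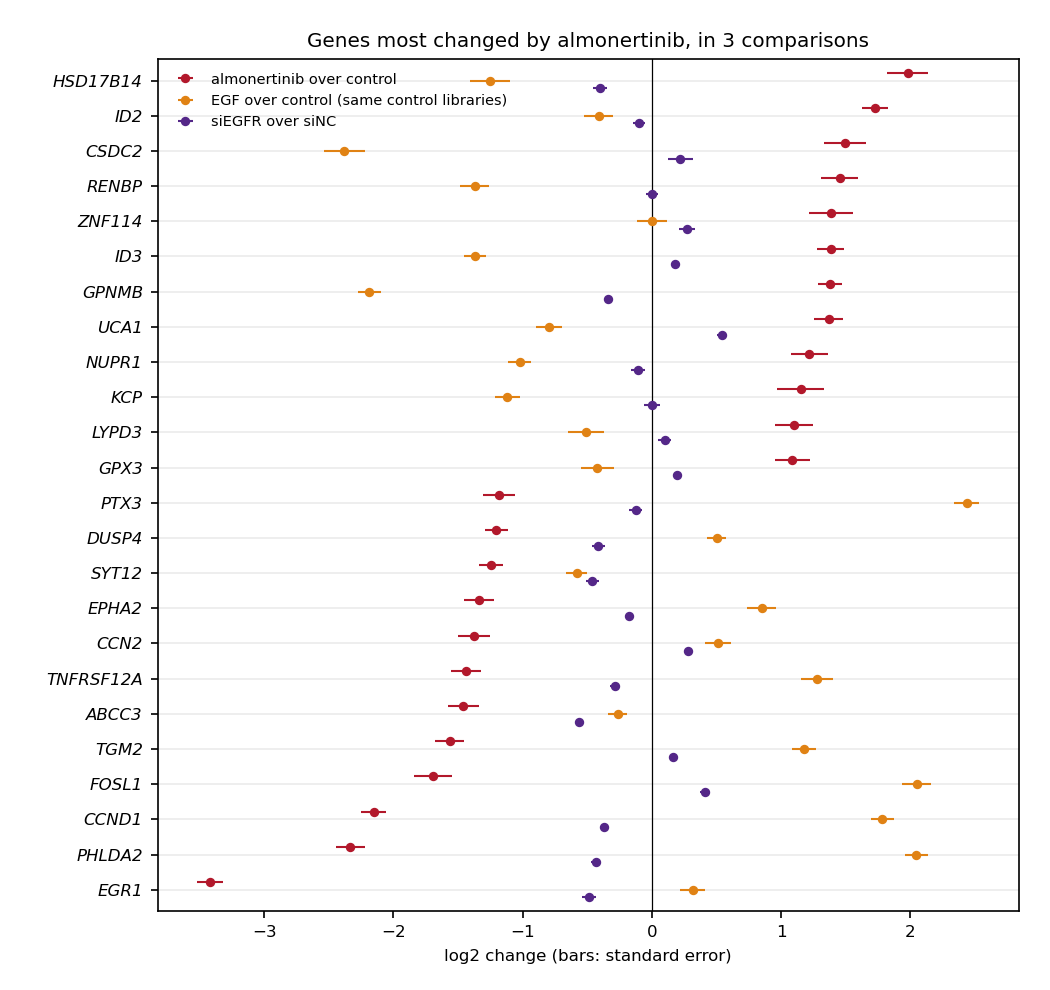
Log2 change ± SE (horizontal) of the 12 largest increases and 12 largest decreases with almonertinib, in almonertinib over control (red), EGF over control (orange, same control libraries) and siEGFR over siNC (purple). GPNMB is at 1.38, -2.19 and -0.34 and ABCC3 at -1.46, -0.26 and -0.56, and all 24 knockdown points lie between -0.56 and 0.54.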

How the data were processed

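The authors deposited FPKM values for 61248 loci in 15 libraries. Of these, 60605 carry an Ensembl ID and 643 were added by the authors, and 60463 matched a gene symbol. Per the labels' protocols, poly(A) RNA was captured on oligo(dT) beads from TRIzol extracts and sequenced in paired ends. The tools HISAT2, featureCounts and DESeq2 and the build hg19 are listed, with no version or role, per the submitters' processing notes, and no strand setting is given, so antisense reads cannot be separated. The table gave whole reads after recovery of the step per read for 99.998% of positive values, within 0.01 reads.

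Genes reaching 1 FPKM in 3 or more of the 6 libraries were tested on log2(FPKM + 1) with limma 3.58.1 (R 4.3.3, with version 1.17.8 of data.table), with an intensity trend, robust moderation, a two-sided test and Benjamini-Hochberg adjusted p under 0.05 over all 13510. Only these 6 libraries were fitted, because the median SD within siRNA groups was 0.058 and 0.049 log2 units, beside 0.139 for almonertinib and 0.145 for control. EGF against control and siEGFR against siNC were fitted alike. The steps were checked on simulated data. Replicate numbers were not used to pair the samples in the main fit. The members and the 39 gene lists were chosen with earlier results of these data known, so lists are given as counts and medians without a test. The named genes are the 6 markers, EGFR, the 12 largest increases and decreases with at least 5 FPKM in the higher group and no pseudogene, antisense or clone name, and up to 4 called members per list and direction by smallest p. Further list members were chosen after their values were seen. Alternatives changed the libraries fitted, pseudocount, filter, scaling, variance model, block and measure, or left libraries out. Promoters came from RefSeq (GRCh38.p14), gene types from GENCODE 29, and tables and figures from Python 3.11.15 (pandas 2.3.3, numpy 2.4.6, matplotlib 3.10.9). A few named genes are not reported here.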

Additional observations from a re-analysis of the deposited data

How the results depend on the processing

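The counts of 431 higher and 475 lower genes moved by over 1.5 times under several alternatives, and the cause was not tested beyond what the construction shows (more or fewer libraries or genes). A fit of all 15 libraries gave 1839 and 2577, and a fit of 9 libraries 961 and 1168. Testing all 36037 genes above 0 gave 48 and 75, and the replicate number as a block 152 and 232. TPM scaling gave 737 lower genes and 293 higher. Leaving out 1 library gave 35 to 187 higher and 55 to 216 lower genes, with the counts for each of the 6 libraries given above. Leaving out control 1 and almonertinib 3 together, an alternative chosen after seeing the data, gave 830 and 995. The counts stayed within 1.5 times with a pseudocount of 0.1 (422 and 468), a filter of 5 FPKM (374 and 395), no trend (424 and 476), median-ratio scaling (452 and 381) and limma-voom on recovered reads (443 and 632). Under all 17 alternatives 25 genes stayed higher and 32 lower. A gene that the filter of 5 FPKM left untested was counted as lost there, so these counts leave out genes of low level. DUSP6 and FOS, for example, were called in all 16 alternatives that tested them. None of the 128 named genes changed sign under any alternative. EGFR apart, they were chosen among called genes, whose groups do not overlap, so a change of sign could hardly occur and its absence shows little. The replicate block lost 41 of their calls and gained 1. Same-numbered libraries deviated with r of -0.179, 0.599 and -0.189. These 3 values are not independent and cannot decide whether the numbers pair the libraries. Genes near 1 FPKM rest on few reads per kilobase, which limits small changes.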
